A study of Mus musculus with 18 samples.

Results

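The cytochrome P450 genes of families 1 to 4 were followed through 14 days of primary culture of mouse kidney proximal tubule. Members were the genes named Cyp, a family number, 1 lower-case letter and digits only, with a mean level of at least 0.5 transcripts-per-million (TPM) on 1 or more days. Of 55421 genes, 75 carried such a name and 32 reached that level: 2 in family 1, 19 in family 2, 1 in family 3 and 10 in family 4. Names with a letter after the last digit were not matched by the rule. The study measured polyA RNA in 18 libraries, with replicates lettered A to C on days 0, 1, 2, 4, 7 and 14 of culture. All groups came from kidneys of wild-type female C57BL/6J mice aged 6 weeks, whose tubules were released with collagenase, enriched on a Percoll gradient and, from day 1 on, grown on tissue culture plastic with no subculture and no added treatment. Day 0 is the isolated tubule, and the later days are what grew from it, so time in culture, medium and loss or outgrowth of cells cannot be told apart. In such bulk samples fewer cells of a type and less RNA per cell cannot be told apart either. The labels call the replicates biological but name no animal or culture, so a p-value here reflects the spread between the sequenced libraries alone, which may be technical.

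Cytochromes P450 of families 1 to 4 are mainly heme enzymes of the endoplasmic reticulum that insert an oxygen atom into their substrate. The electrons come from NADPH and are passed on by the reductase Por. Families 1 to 3 hold the drug- and pollutant-metabolising enzymes, and the 2c and 2j subfamilies also make epoxides of arachidonic acid. Family 4 enzymes hydroxylate the far end of fatty acids, and in kidney both kinds of arachidonic acid product act on tubular salt transport and vascular tone.

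Most of the P450 transcript pool was lost within 4 days. The members of families 1 to 4 together made 3138 ± 353, 1157 ± 327, 253 ± 65.4, 66.3 ± 4.47, 111 ± 5.87 and 116 ± 4.69 TPM on days 0, 1, 2, 4, 7 and 14 (mean ± SD, n = 3 libraries each). Family 2 summed to 1723 ± 150.3, 583 ± 162, 104 ± 39, 20.1 ± 2.52, 40.03 ± 11.3 and 43.3 ± 2.19 TPM on days 0, 1, 2, 4, 7 and 14. Family 4 ran close to it, with 1413 ± 206, 546 ± 164, 105 ± 25, 34.7 ± 0.899, 59.7 ± 6.07 and 64.4 ± 2.37 TPM. Both were lowest on day 4, at 1.17% of the day 0 mean in family 2 and 2.46% in family 4, and stood at 2.52% and 4.56% on day 14. Families 1 and 3 did the opposite. Family 1 summed to 1.27 ± 0.176, 6.61 ± 3.65, 9.97 ± 3.23, 6.93 ± 1.71, 8.11 ± 7.13 and 6.13 ± 0.732 TPM, and family 3, which is Cyp3a13 alone, to 0.463 ± 0.0306, 22.3 ± 1.37, 33.2 ± 4.15, 4.49 ± 0.45, 2.78 ± 2.56 and 1.83 ± 0.334 TPM. Those of family 1 and family 3 on each later day lay above those of day 0 without overlap. These sums are descriptions and were given no test.

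**Figure D1:**
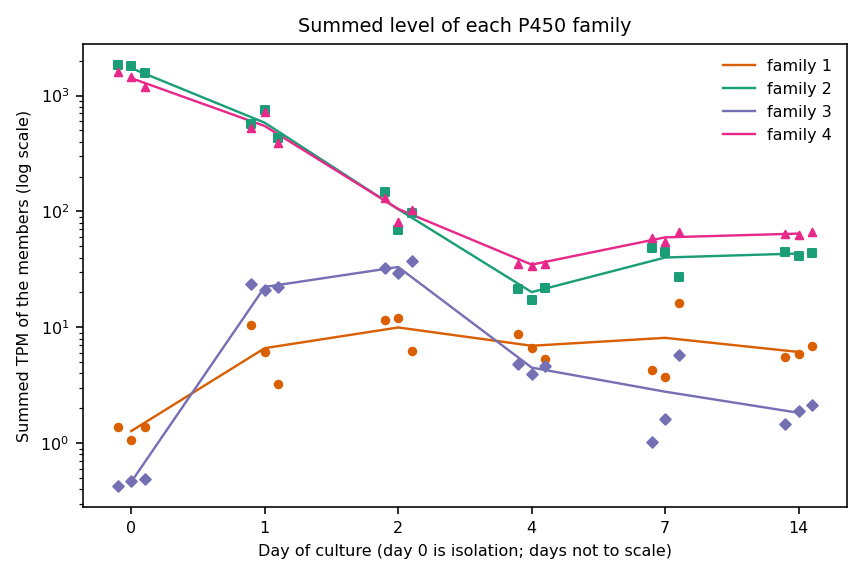
Summed TPM of the members of each P450 family in each library (points, replicates A, B and C from left to right; lines join day means; log axis). Families 2 and 4 fall together to 20.1 and 34.7 TPM on day 4, while families 1 and 3 lie above their day 0 libraries on every later day.

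Each member was tested in 1 model of all 18 libraries with edgeR's quasi-likelihood test on estimated counts, and called at an adjusted p under 0.05 over the 18754 genes tested. All 32 members passed the filter on low counts. On day 1 against day 0, 4 members were higher and 26 lower, where 33.1% of all tested genes were called higher and 37.1% lower. By family, day 1 had 2 of 2 higher in family 1, 18 of 19 lower in family 2, 1 of 1 higher in family 3, and 1 higher and 8 lower of 10 in family 4. On day 2 against day 0 the counts were 4 and 26 (38.9% and 35.3% of all genes), on day 4 they were 3 and 28 (38.1% and 36.8%), on day 7 they were 4 and 27 (37.6% and 32.1%) and on day 14 they were 5 and 27 (37.4% and 32.1%). Day 14 had 1 higher and 1 lower in family 1, 19 of 19 lower in family 2, 1 of 1 higher in family 3, and 3 higher and 7 lower in family 4. Of the 27 lower on day 14, Cyp2j6 and Cyp2u1 had the opposite sign by limma on log2(TPM + 1). The median log2 fold change of the members over day 0 was -1.76, -4.15, -7.35, -7.51 and -7.22 on days 1, 2, 4, 7 and 14, against medians of -0.01, 0.14, 0.08, 0.16 and 0.16 for all tested genes. With members at 0 counts on a day set to their bound, the last 3 medians were -6.32, -6.27 and -6.33. Since 30 of the 32 reached 0.5 TPM on day 0 and 4 of them (Cyp2c68, Cyp2d10, Cyp2f2 and Cyp4f14) on that day alone, the choice of members favours genes that are high on day 0. Among the 43 names under the threshold, 11 had 0 counts in every library and the highest total was 77 counts over all libraries. They include the liver-enriched Cyp3a11 and Cyp2b10, with 16 and 10 counts in all. The members just inside the threshold were Cyp2c68, Cyp2d10 and Cyp4f14, with highest day means of 0.743, 0.893 and 1.03 TPM, and just outside lay Cyp2j7, Cyp4f39 and Cyp4f18 with 0.43, 0.377 and 0.257 TPM.

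**Figure D2:**
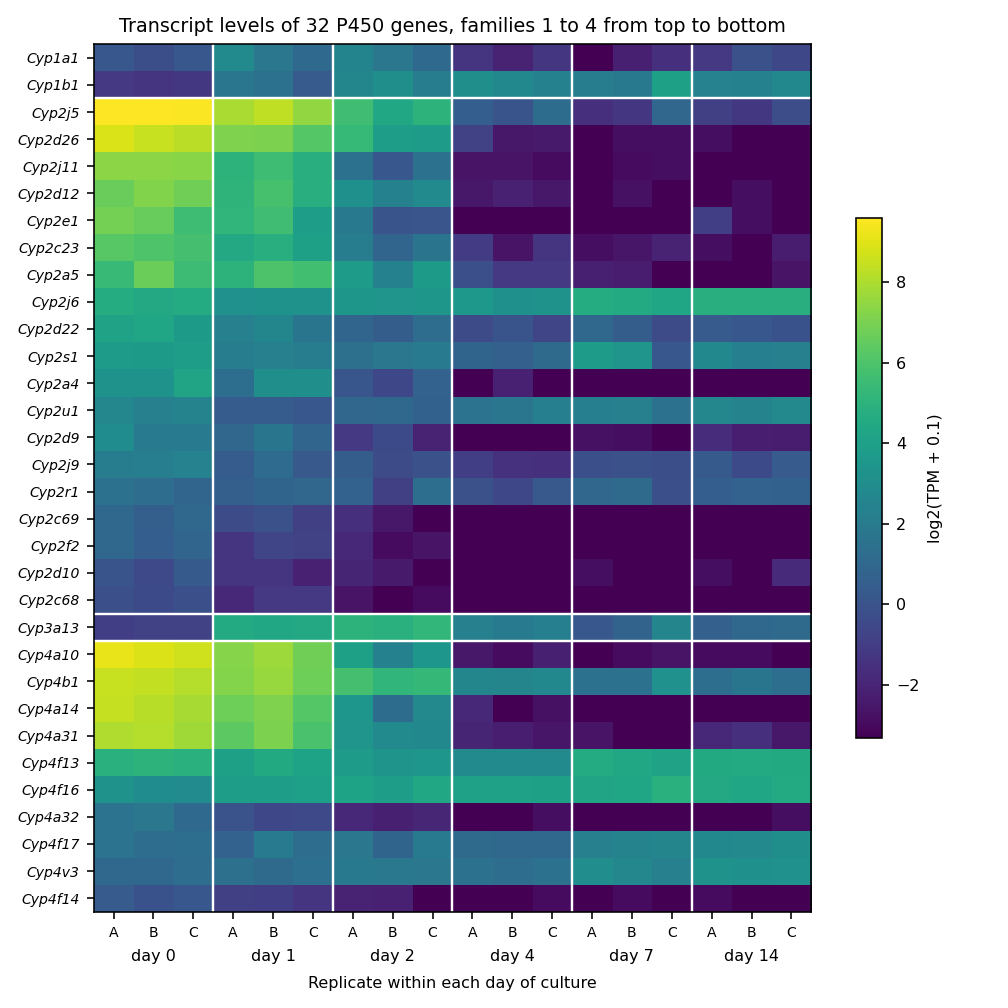
Level of the 32 members in each of the 18 libraries, as log2(TPM + 0.1), with replicates A, B and C side by side within a day; genes are grouped by family, separated by white lines, and ordered by day 0 level. The upper rows of families 2 and 4 darken between day 1 and day 4, Cyp3a13 is brightest on days 1 and 2, and Cyp2j6, Cyp4f13 and Cyp4f16 stay bright throughout.

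The libraries held between 23799559 and 37579097 counts, and the mitochondrial share of counts was 3.93 to 5.73% on day 0, 3.57 to 4.95% on day 1 and 1.56 to 1.90% on day 2. It was lowest on day 4, at 0.4385 to 0.498%, as was the summed P450 level, and stood at 0.711 to 0.939% on day 7 and 0.895 to 1.006% on day 14; its part in the changes was not tested. The labelled cell type was checked against 12 proximal tubule markers, which summed to 9221 to 9826 TPM in the day 0 libraries, 2843 to 4759 on day 1 and 567.7 to 984 on day 2. Their sum was 31.3 to 52.1 TPM on day 4, 56.2 to 97 on day 7 and 124 to 137 on day 14. All 11 of them that were tested were lower on day 14 than on day 0, with a median log2 fold change of -7.95, so the P450 values of later days come from libraries in which the defining transcripts of the tubule were low. The summed level of 8 fibroblast and smooth muscle markers was 87 to 103 TPM on day 14 and 28.1 to 34 TPM on day 0, with 3 of 8 called higher and 4 lower. That of 6 thick limb and distal markers was 9.02 to 17.4 TPM on day 14 against 1569 to 2028 TPM on day 0, with 6 of 6 lower, and that of 6 collecting duct markers was 24.5 to 38.9 TPM on day 14 against 579.9 to 839.7 TPM on day 0, also with 6 of 6 lower. Endothelial markers summed to 24.3 to 28.2 TPM on day 14 and 78.4 to 84.9 TPM on day 0 (8 of 8 lower). Macrophage markers summed to 30.2 to 45.1 TPM on day 14 and 19.2 to 55.7 TPM on day 0 (1 of 8 higher, 4 lower), and podocyte markers to 50.6 to 67 TPM on day 14 and 100.9 to 131 TPM on day 0 (6 of 6 lower). On day 14, 1 gene each of the proximal, thick limb and collecting duct lists was at 0 counts. The part of these cell types in the P450 changes was not tested. Fold changes are relative to TMM scaling. With library sizes alone, the median of all genes against day 0 moved by 0.301, 0.513, 0.493, 0.5 and 0.562 (log2) on days 1, 2, 4, 7 and 14, and TPM levels carry a shift of this kind, so a member near its day 0 level can differ in sign between the scales.

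The start regions of 24 members were found among RefSeq promoter windows (GRCm38.p6, 250 bases before to 50 after a start site). Shown here are those of 3 genes that rose early, of the abundant Cyp2d26, which fell, and of Cyp4v3, which ended above its day 0 level. Capitals mark GCGTG, the core of the element bound by the aryl hydrocarbon receptor Ahr, in Cyp1a1 and Cyp1b1, and TGANTCA, the AP-1 element, in Cyp3a13. In Cyp2d26 they mark GTTAAT, the core of a hepatocyte nuclear factor Hnf1 site, and CAAAGT, the core of an Hnf4 site. TATAAA is marked in Cyp1a1 and Cyp2d26, and every CG in Cyp4v3. Each motif was searched on both strands, so it can appear as its reverse complement.
Cyp1a1 (chr9:57697363-57697662, plus strand): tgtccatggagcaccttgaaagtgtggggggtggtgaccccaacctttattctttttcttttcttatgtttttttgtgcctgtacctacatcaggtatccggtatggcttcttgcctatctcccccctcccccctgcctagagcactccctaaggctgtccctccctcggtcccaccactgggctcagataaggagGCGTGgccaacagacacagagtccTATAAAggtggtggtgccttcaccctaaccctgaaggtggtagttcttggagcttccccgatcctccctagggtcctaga
Cyp1b1 (chr17:79715012-79715311, minus strand): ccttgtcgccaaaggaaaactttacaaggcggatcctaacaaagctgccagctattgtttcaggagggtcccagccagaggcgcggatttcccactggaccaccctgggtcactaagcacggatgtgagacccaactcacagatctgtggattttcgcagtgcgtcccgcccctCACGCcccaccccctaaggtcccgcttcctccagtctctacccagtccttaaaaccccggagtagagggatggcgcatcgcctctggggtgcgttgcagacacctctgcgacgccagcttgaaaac
Cyp3a13 (chr5:137921570-137921869, minus strand): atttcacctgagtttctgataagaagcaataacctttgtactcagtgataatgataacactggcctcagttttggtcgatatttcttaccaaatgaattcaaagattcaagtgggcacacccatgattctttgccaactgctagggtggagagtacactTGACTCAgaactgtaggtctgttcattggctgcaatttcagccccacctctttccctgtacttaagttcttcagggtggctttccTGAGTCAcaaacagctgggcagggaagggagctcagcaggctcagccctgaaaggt
Cyp2d26 (chr15:82794196-82794495, minus strand): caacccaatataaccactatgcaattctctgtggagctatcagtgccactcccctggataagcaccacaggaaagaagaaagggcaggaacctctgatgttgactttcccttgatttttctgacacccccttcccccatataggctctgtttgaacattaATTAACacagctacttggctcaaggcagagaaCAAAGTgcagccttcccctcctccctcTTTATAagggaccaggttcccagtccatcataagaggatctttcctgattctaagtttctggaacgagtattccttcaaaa
Cyp4v3 (chr8:45333114-45333413, minus strand): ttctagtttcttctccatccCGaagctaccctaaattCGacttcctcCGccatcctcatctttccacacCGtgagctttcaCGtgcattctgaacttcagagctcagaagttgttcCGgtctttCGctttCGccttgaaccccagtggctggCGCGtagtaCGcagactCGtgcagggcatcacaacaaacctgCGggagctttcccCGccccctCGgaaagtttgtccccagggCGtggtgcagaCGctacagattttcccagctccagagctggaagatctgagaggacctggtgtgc
GCGTG was found in 8 of the 24 members, and in 32.4% of all 32851 windows. A member was counted if any of its windows held a motif, while the share of all is per window. Cyp4f14 had 4 windows, with GCGTG in window 1 alone and GTTAAT in window 4 alone. TGANTCA was found in 3 members (Cyp3a13, Cyp4b1 and Cyp4f16) and in 7.81% of all windows, and the Cyp3a13 window held it at 2 places, 91 and 6 bases before the start. GTTAAT was found in 7 members and 7.1% of all windows, CAAAGT in 6 and 14.4%, and TATAAA in 10 and 13.6%. The Cyp2a4, Cyp2a5, Cyp2c69 and Cyp2d26 windows held the last 3 motifs together, as did 0.344% of all windows. No other combination was counted, and the difference was not tested. Cyp2a4 and Cyp2a5 are near-copies, so they are not separate instances. TATAAA lay 28, 29 and 31 bases before the start in Cyp2a4, Cyp2a5 and Cyp2d26, but 10 bases after it in Cyp2c69. The windows of Cyp1b1, Cyp2s1, Cyp4v3 and Cyp2r1 held 16 to 22 CG pairs, those of the other 20 members 0 to 6, and the median over all windows was 7. A match to these letters is a description of the sequence and not a measured binding site.

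Family 1 rose early. Cyp1a1 and Cyp1b1 are the classical targets of Ahr and oxidise polycyclic hydrocarbons, and Cyp1b1 also acts on estradiol. The summed endothelial markers were also higher on day 1 than on day 0 without overlap (97.3 to 147 TPM on day 1, against 78.4 to 84.9 TPM on day 0, with 4 of 8 called higher and 1 lower), and on day 2, at 80.9 to 115 TPM, they overlapped day 0. Macrophage markers, at 50.9 to 59.4 TPM on day 1, overlapped their day 0 range (1 of 8 higher, 6 lower), and the sums of the fibroblast, podocyte, thick limb and collecting duct lists lay below day 0. No marker gene of these lists was at 0 counts on day 1, and the part of these cells in the early rises of Cyp1a1, Cyp1b1 and Cyp3a13 was not tested. Cyp1a1 stood at 1.03, 0.77 and 1.05 TPM on day 0, 7.16, 3.33 and 2.03 on day 1 and 5.61, 3.41 and 2.07 on day 2. It was at 0.28, 0.14 and 0.31 TPM on day 4, 0, 0.12 and 0.25 on day 7 and 0.35, 0.83 and 0.6 on day 14. The day 1 and day 2 libraries all lay above those of day 0, with replicate A highest, and the day 4 and day 7 libraries all lay below. The log2 fold change was 1.78 ± 0.54 on day 1 against day 0 (± SE; adjusted p = 0.00795), 1.38 ± 0.54 on day 2 (adjusted p = 0.0295) and -2.62 ± 0.64 on day 4 (adjusted p = 0.00151). The day 1 call was lost without day 1 replicate A (adjusted p = 0.0748), and that of day 2 without any single day 0 library or day 2 replicate A (adjusted p between 0.0555 and 0.144). On day 4 the call held without any single library but not by limma on log2(TPM + 1), where the log2 fold change was -0.65 (adjusted p = 0.0631). On day 14 its libraries overlapped those of day 0. The call of that day (log2 fold change -1.50 ± 0.58, adjusted p = 0.0321) was lost without day 0 replicate A or C or day 14 replicate A or C (adjusted p between 0.0676 and 0.141) and with library sizes alone (-0.94, adjusted p = 0.154). It shares 5.52% of its 31-base words (stretches of transcript sequence) with Cyp1a2, which had 10 counts over all libraries.

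Cyp1b1 stood at 0.34, 0.3 and 0.33 TPM on day 0, 3.32, 2.8 and 1.19 on day 1 and 5.93, 8.71 and 4.18 on day 2. It was at 8.49, 6.51 and 5.07 TPM on day 4, 4.25, 3.63 and 16.1 on day 7 and 5.24, 5 and 6.36 on day 14. Unlike Cyp1a1, it kept a level above day 0 in all 15 later libraries. The log2 fold change was 2.52 ± 0.54 on day 1 (adjusted p = 5.96e-04), 3.71 ± 0.55 on day 4 (adjusted p = 1.38e-05) and 3.25 ± 0.54 on day 14 (adjusted p = 5.82e-05). On day 7, replicate C stood apart at 16.1 TPM. Without it the day 7 mean was 3.94 in place of 7.99 TPM, and the log2 fold change against day 0 was 2.89 in place of 3.86 (adjusted p = 5.16e-06 without it). In that library the fibroblast and smooth muscle markers summed to 114.9 TPM, against 44.4 and 46.8 TPM in replicates A and B, and podocyte markers to 125.5 against 57.7 and 58 TPM. Macrophage and endothelial sums were also highest there, at 90.5 and 49.7 TPM. Proximal tubule, thick limb and collecting duct sums were lowest there. The part of these cells in the Cyp1b1 value was not tested.

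Cyp3a13, the only matched name of the drug-metabolising family 3 above the threshold, made the largest early rise of the 32. It stood at 0.43, 0.47 and 0.49 TPM on day 0, 23.6, 20.8 and 22.5 on day 1 and 32.8, 29.2 and 37.5 on day 2. It was at 4.82, 3.98 and 4.68 TPM on day 4, 1.02, 1.61 and 5.72 on day 7 and 1.47, 1.89 and 2.13 on day 14. The 6 libraries of days 1 and 2 lay between 20.8 and 37.5 TPM and no other library exceeded 5.72 TPM. The log2 fold change was 5.21 ± 0.47 on day 1 against day 0 (adjusted p = 6.31e-08), 5.57 ± 0.47 on day 2 (adjusted p = 2.46e-08) and -2.94 ± 0.39 on day 4 against day 2 (adjusted p = 2.70e-05). On day 7 replicate C was again highest, and without it the mean was 1.32 in place of 2.78 TPM and the log2 fold change against day 0 was 0.79 in place of 1.82 (adjusted p = 0.00513 without it). The day 14 call (log2 fold change 1.14 ± 0.46, adjusted p = 0.0373) was lost without any single day 0 library or without day 14 replicate B or C, with adjusted p between 0.0579 and 0.0913. It was also lost in edgeR with DESeq2 size factors in place of TMM (1.04, adjusted p = 0.0578).

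**Figure D3:**
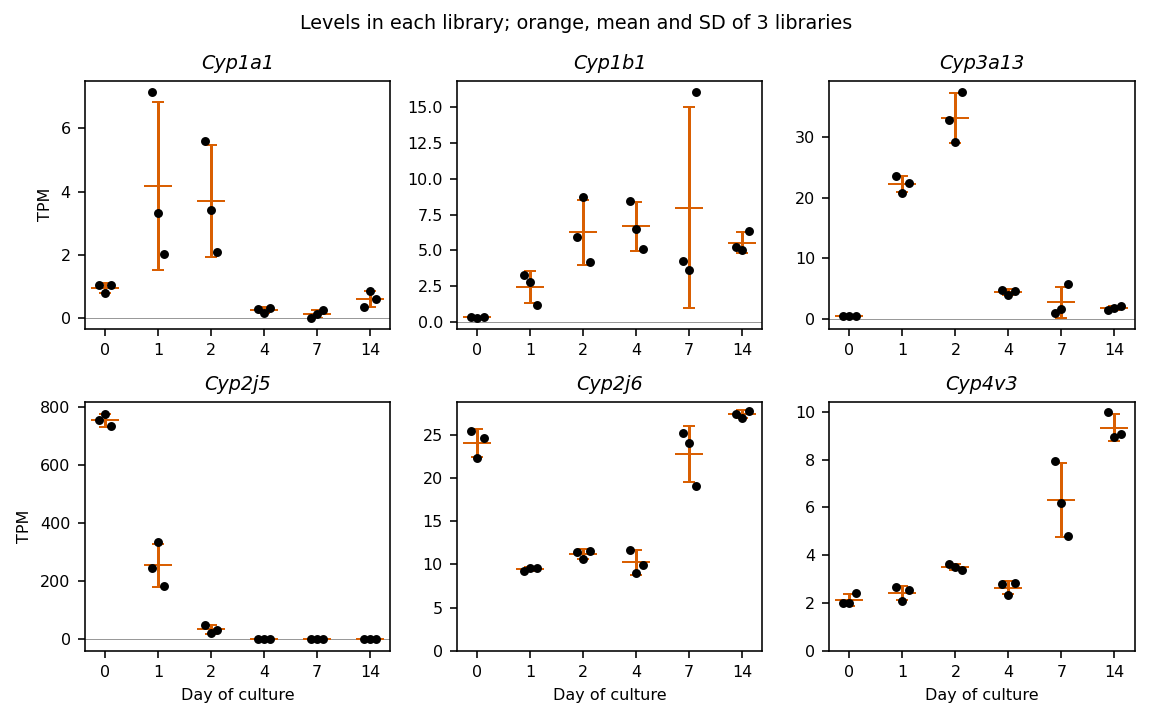
TPM of 6 members in each library (black points, replicates A, B and C from left to right) with the mean and SD of 3 libraries (orange), by day of culture. Cyp1a1 and Cyp3a13 peak on days 1 and 2, Cyp1b1 stays above its day 0 libraries, Cyp2j5 is near 0 from day 4, Cyp2j6 dips and returns, and Cyp4v3 is highest on day 14.

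The 4 Cyp2j genes lie in 1 cluster on chromosome 4, between 96294508 (Cyp2j11) and 96664154 (Cyp2j5) of GRCm38, and went separate ways. Cyp2j5, an arachidonic acid epoxygenase of the proximal tubule, was the most abundant of the 32 on day 0. It stood at 755, 778 and 733 TPM on day 0, 245, 334 and 184 on day 1 and 49.6, 20.9 and 32.6 on day 2. It was at 1.34, 0.93 and 2.25 TPM on day 4, 0.24, 0.31 and 1.84 on day 7 and 0.45, 0.33 and 0.74 on day 14. The later libraries all lay below those of day 0, the highest at 334 TPM, and the log2 fold change was -1.92 ± 0.42 on day 1 against day 0 (adjusted p = 6.81e-04) and -11.36 ± 0.66 on day 14 (adjusted p = 3.06e-10). The day 7 mean was 0.275 TPM without replicate C and 0.797 with it. Cyp2j11 stood at 164, 162 and 156 TPM on day 0, 32.7, 48.5 and 27.1 on day 1 and 2.87, 1.02 and 2.7 on day 2. From day 4 on no library exceeded 0.06 TPM, and with 0 counts on day 14 it was at least 8655-fold lower than on day 0 (floor of 3 counts over the 3 libraries). Its log2 fold change on day 1, -2.51 ± 0.27, was the largest fall of that day (adjusted p = 1.71e-06). Cyp2j9 fell to a mean of 0.303 ± 0.102 TPM on day 4, against 4.7 ± 0.435 on day 0, and averaged 1.01 ± 0.315 TPM on day 14 (mean ± SD, 3 libraries).

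Cyp2j6, next to Cyp2j9 in the cluster, fell and then recovered. It stood at 25.4, 22.2 and 24.6 TPM on day 0, 9.26, 9.52 and 9.62 on day 1 and 11.5, 10.6 and 11.5 on day 2. It was at 11.7, 8.95 and 9.96 TPM on day 4, 25.2, 24 and 19.1 on day 7 and 27.4, 26.9 and 27.8 on day 14. The 9 libraries of days 1, 2 and 4 all lay below those of day 0, day 7 and day 14. Its log2 fold change was -1.71 ± 0.11 on day 1 against day 0 (adjusted p = 2.31e-09) and 1.08 ± 0.11 on day 7 against day 4 (adjusted p = 1.24e-05). Day 14 against day 0 depended on the scale. With TMM the log2 fold change was -0.64 ± 0.11 (adjusted p = 8.21e-05), with library sizes alone -0.08 (adjusted p = 0.5), and by limma on log2(TPM + 1) it was 0.18 (adjusted p = 0.129). The TPM of the day 14 libraries lay above those of day 0 without overlap, so no direction is given for this pair of days.

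The 2c and 2a genes, 2e1 and 2f2 were lost almost completely. Cyp2c23, an arachidonic acid epoxygenase of kidney, stood at 75.4, 66.7 and 56.2 TPM on day 0 and 22.2, 27.7 and 16.2 on day 1, and no library exceeded 0.14 TPM on days 7 and 14 (log2 fold change -11.23 ± 0.55 on day 14 against day 0, adjusted p = 4.52e-11). Cyp2c68 and Cyp2c69 had 0 counts from day 4 on, against means of 0.743 ± 0.0814 and 1.76 ± 0.291 TPM on day 0, and were at least 35-fold and 77.6-fold lower on day 14. These 2 share 62% and 64.9% of their 31-base words with other genes, so how their reads were divided is uncertain. Cyp2f2, known for activating naphthalene in mouse airway, was at 1.86, 1.38 and 1.79 TPM on day 0, 0.3, 0.55 and 0.49 on day 1 and 0.17, 0.03 and 0.06 on day 2. It had 0 counts on days 4, 7 and 14 and was at least 83.4-fold lower on day 14. Cyp2f2 and Cyp2c68 are members through their day 0 level alone, so a fall from day 0 is partly built into the choice. The ethanol- and acetone-oxidising Cyp2e1 stood at 121, 98.2 and 47.5 TPM on day 0, 36.3, 49.3 and 14.6 on day 1 and 3.61, 0.93 and 0.96 on day 2. It had 0 counts on days 4 and 7, at least 4568-fold and 4437-fold lower than on day 0, and 13 counts on day 14, nearly all in replicate A (0.43 TPM, against 0.04 and 0 TPM in B and C). Its day 1 libraries overlapped those of day 0, and the day 1 call (log2 fold change -1.75 ± 0.56, adjusted p = 0.0152) was lost without day 0 replicate A (adjusted p = 0.063) or day 1 replicate C (0.0523) and by DESeq2 (0.146).

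Cyp2a5, the coumarin hydroxylase of mouse, was not called on day 1, and the related steroid hydroxylase Cyp2a4 was called on that day in only some fits. Cyp2a5 stood at 43.1, 105 and 46.3 TPM on day 0, 32.5, 62.5 and 51 on day 1 and 14, 5.1 and 13.2 on day 2. It was at 0.8, 0.35 and 0.35 TPM on day 4, 0.12, 0.1 and 0 on day 7 and 0, 0 and 0.06 on day 14. On day 1 its libraries overlapped those of day 0 and it was not called (log2 fold change -0.80 ± 0.35, adjusted p = 0.0536), while on day 2 it was lower (-3.33 ± 0.39, adjusted p = 1.09e-06). On day 14, 2 counts remained of 8575 on day 0, a 5703-fold lower level with a 95% interval of 1578 to 47100, which covers counting error only. Cyp2a4 averaged 6.54 ± 3.52 TPM on day 1 and 12.6 ± 5.32 on day 0 (mean ± SD, 3 libraries). Its day 1 call (adjusted p = 0.0443) was lost without day 0 replicate B or C, day 1 replicate A or C, or day 2 replicate A, with adjusted p between 0.0515 and 0.192. With 0 counts on day 14 it was at least 580.4-fold lower. Of its 31-base words Cyp2a4 shares 55.9% with Cyp2a5, and Cyp2a5 shares 44.9% of its own with Cyp2a4, so reads could be split between them.

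The 2d genes, relatives of the human drug-metabolising CYP2D6, fell with the main group. Cyp2d26 stood at 473, 362 and 307 TPM on day 0, 139, 131 and 73 on day 1 and 40.8, 14.8 and 13.6 on day 2. It was at 0.49, 0.08 and 0.09 TPM on day 4, 0, 0.04 and 0.04 on day 7 and 0.04, 0 and 0 on day 14. The single count of day 14 set against 39662 counts on day 0 is a 52750-fold lower level (95% interval 9468 to 2084000, counting error only). Cyp2d12 stood at 100.5, 139.9 and 111 TPM on day 0, 33.8, 58 and 28.7 on day 1 and 8.73, 5 and 6.94 on day 2, and no library exceeded 0.13 TPM on day 4 or 0.05 TPM later. Cyp2d22 kept more of its level, averaging 0.72 ± 0.183 TPM on day 4, 1.3 ± 0.615 on day 7 and 1.03 ± 0.165 on day 14 against 16.4 ± 3.19 on day 0 (log2 fold change -4.93 ± 0.34 on day 14, adjusted p = 2.29e-09). Cyp2d9 stood at 7.57, 4.03 and 3.76 TPM on day 0, 1.82, 3.11 and 1.75 on day 1 and 0.35, 0.66 and 0.14 on day 2. It was at 0 TPM in all 3 libraries of day 4, 0.05, 0.04 and 0 on day 7 and 0.21, 0.11 and 0.1 on day 14. With 7 counts on day 14 and 0 on day 4 it was at least 2.33-fold higher on day 14 than on day 4, a call lost by limma on log2(TPM + 1) (adjusted p = 0.486). Cyp2d10, a member through its day 0 level alone, averaged 0.0767 ± 0.1 TPM on day 14 and 0.893 ± 0.275 on day 0. Both it and Cyp2d9 share much of their sequence with other genes (50.2% and 34.8% of 31-base words).

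The remaining family 2 genes kept or regained a measurable level. Cyp2u1, a fatty acid hydroxylase in human, stood at 6.17, 4.88 and 5.33 TPM on day 0, 1.28, 1.26 and 1.05 on day 1 and 1.8, 1.89 and 1.5 on day 2. It was at 2.93, 3.28 and 4.68 TPM on day 4, 4.71, 4.93 and 2.72 on day 7 and 6.3, 5.45 and 6.61 on day 14. After its fall on day 1 (log2 fold change -2.49 ± 0.22, adjusted p = 6.02e-08), the day 14 libraries lay above all those of day 4 (0.86 ± 0.21, adjusted p = 0.00287) and overlapped those of day 0. Day 14 against day 0 was -0.73 ± 0.21 with TMM (adjusted p = 0.00493), -0.17 with library sizes alone (adjusted p = 0.448) and 0.14 by limma on log2(TPM + 1) (adjusted p = 0.471). Cyp2s1, for which retinoic acid has been described as a substrate in human, averaged 13.7 ± 0.651 TPM on day 0 and 1.75 ± 0.333 on day 4. On day 7 it stood at 13.7, 10.5 and 1.05 TPM, with replicate C far below the other two, and on day 14 at 6.42, 4.76 and 4.9 TPM. Day 7 against day 4 gave a log2 fold change of 2.20 ± 0.54 (adjusted p = 0.00507) and, without replicate C, 2.72. The call was lost with only the libraries of the days compared (2.16, adjusted p = 0.0989), by limma on log2(TPM + 0.1) (1.59, adjusted p = 0.0579) and by limma on log2(TPM + 1) with no filter (1.36, adjusted p = 0.0785). In replicate C collecting duct markers summed to 20.1 TPM, against 52.1 and 64.2 TPM in replicates A and B. Thick limb and distal markers summed to 3.78 TPM, against 18.9 and 21.1 TPM, and proximal tubule markers to 56.21, against 96.95 and 75.75 TPM. The fibroblast, podocyte, macrophage and endothelial sums were highest in replicate C. The part of these cells in the Cyp2s1 value was not tested. Cyp2r1, a vitamin D 25-hydroxylase, averaged 1.47 ± 0.112 TPM on day 14 and 2.31 ± 0.493 on day 0. Its day 14 call with TMM (log2 fold change -1.46 ± 0.43, adjusted p = 0.00649) was lost with library sizes alone (-0.90, adjusted p = 0.0652) and by limma on log2(TPM + 1) (-0.42, adjusted p = 0.165).

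Within family 4, the 4a genes, Cyp4b1 and Cyp4f14 fell to low levels, Cyp4f13 fell and then regained most of its TPM, and Cyp4f16, Cyp4f17 and Cyp4v3 ended higher. Cyp4a10 and Cyp4a14 hydroxylate fatty acids and are classical targets of the receptor Ppara. Cyp4a10 stood at 571, 483 and 404 TPM on day 0, 154, 210.2 and 112 on day 1 and 16, 5.07 and 11 on day 2. It was at 0.08, 0.03 and 0.12 TPM on day 4, 0, 0.03 and 0.06 on day 7 and 0.03, 0.03 and 0 on day 14. The log2 fold change was -1.97 ± 0.32 on day 1 against day 0 (adjusted p = 4.17e-05) and -6.07 ± 0.38 on day 2 (adjusted p = 8.75e-10). Cyp4a14 stood at 352, 296 and 241 TPM on day 0, 108, 136 and 72.8 on day 1 and 11, 2.27 and 6.75 on day 2. It had 0 counts on days 7 and 14 and was at least 21440-fold lower on day 14 than on day 0, the largest such bound of the 32 on that day. Cyp4a31 stood at 265, 286 and 215 TPM on day 0, 81.5, 131 and 59.99 on day 1 and 10.6, 7.29 and 6.48 on day 2, and between 0 and 0.24 TPM in the later libraries. Cyp4a32 averaged 2.83 ± 0.713 TPM on day 0 and 0.693 ± 0.162 on day 1, with 1 count on day 14. The 3 near-copies Cyp4a10, Cyp4a31 and Cyp4a32 share 44.9%, 32% and 62.8% of their 31-base words with other genes, so their separate levels are uncertain. Cyp4f14, a leukotriene-hydroxylating enzyme and a member through its day 0 level alone, averaged 1.03 ± 0.181 TPM on day 0 and 0.01 TPM on days 4, 7 and 14.

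Cyp4b1, a fatty acid hydroxylase that also activates the lung toxin ipomeanol, still had a clear level on day 4. It stood at 361, 337 and 286 TPM on day 0, 150.00, 197 and 106 on day 1 and 54.7, 36.2 and 38.7 on day 2. It was at 6.1, 5.82 and 6.39 TPM on day 4, 2.79, 2.71 and 9.21 on day 7 and 2.42, 3.16 and 2.42 on day 14. The libraries of day 4 lay between 5.82 and 6.39 TPM, where no 4a gene exceeded 0.18 TPM. Its log2 fold change was -6.37 ± 0.41 on day 4 (adjusted p = 9.33e-10) and -7.80 ± 0.45 on day 14 (adjusted p = 2.52e-10), against -13.34 ± 0.59 for Cyp4a10 on day 4, and the difference between these genes was not tested. The day 7 mean was 2.75 TPM without replicate C and 4.9 with it.

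The remaining genes of family 4 are Cyp4f13, Cyp4f16 and Cyp4f17 on chromosome 17 and Cyp4v3 on chromosome 8. Cyp4v3, the counterpart of human CYP4V2, whose loss causes a retinal dystrophy, stood at 1.99, 1.98 and 2.4 TPM on day 0, 2.66, 2.1 and 2.54 on day 1 and 3.64, 3.49 and 3.4 on day 2. It was at 2.79, 2.33 and 2.82 TPM on day 4, 7.94, 6.19 and 4.81 on day 7 and 10, 8.96 and 9.06 on day 14. The 6 libraries of days 7 and 14 lay above the 12 others, and the log2 fold change was 1.18 ± 0.17 on day 7 against day 4 (adjusted p = 1.00e-04) and 1.31 ± 0.17 on day 14 against day 0 (adjusted p = 2.97e-06). Cyp4f17 stood at 2.93, 2.34 and 2.46 TPM on day 0, 1.58, 3.83 and 2.33 on day 1 and 3.35, 1.72 and 4.06 on day 2. It was at 2.11, 1.91 and 1.98 TPM on day 4, 4.77, 5.48 and 5.81 on day 7 and 6.51, 6.59 and 8.5 on day 14. Its day 14 libraries were the highest of the course, with a log2 fold change of 1.53 ± 0.21 against day 4 (adjusted p = 2.74e-05) and 0.77 ± 0.21 against day 0 (adjusted p = 0.00376). Cyp4f16 was above its day 0 libraries at every later time, with a mean of 21.7 ± 2.34 TPM on day 14 and 8.29 ± 1.3 on day 0 (log2 fold change 0.70 ± 0.14, adjusted p = 2.62e-04). It shares 26.7% of its 31-base words with other genes, mostly Cyp4f37, so a part of its reads could be divided. Cyp4f13 averaged 30.5 ± 2, 18.9 ± 3.46, 11.7 ± 1.87, 7.04 ± 0.221, 20.7 ± 3.57 and 23.2 ± 0.59 TPM over the 6 days (mean ± SD, 3 libraries). It was higher on day 7 than on day 4 (1.49 ± 0.16, adjusted p = 1.70e-05) and lower on day 14 than on day 0 (-1.41 ± 0.16, adjusted p = 7.85e-07).

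**Figure D4:**
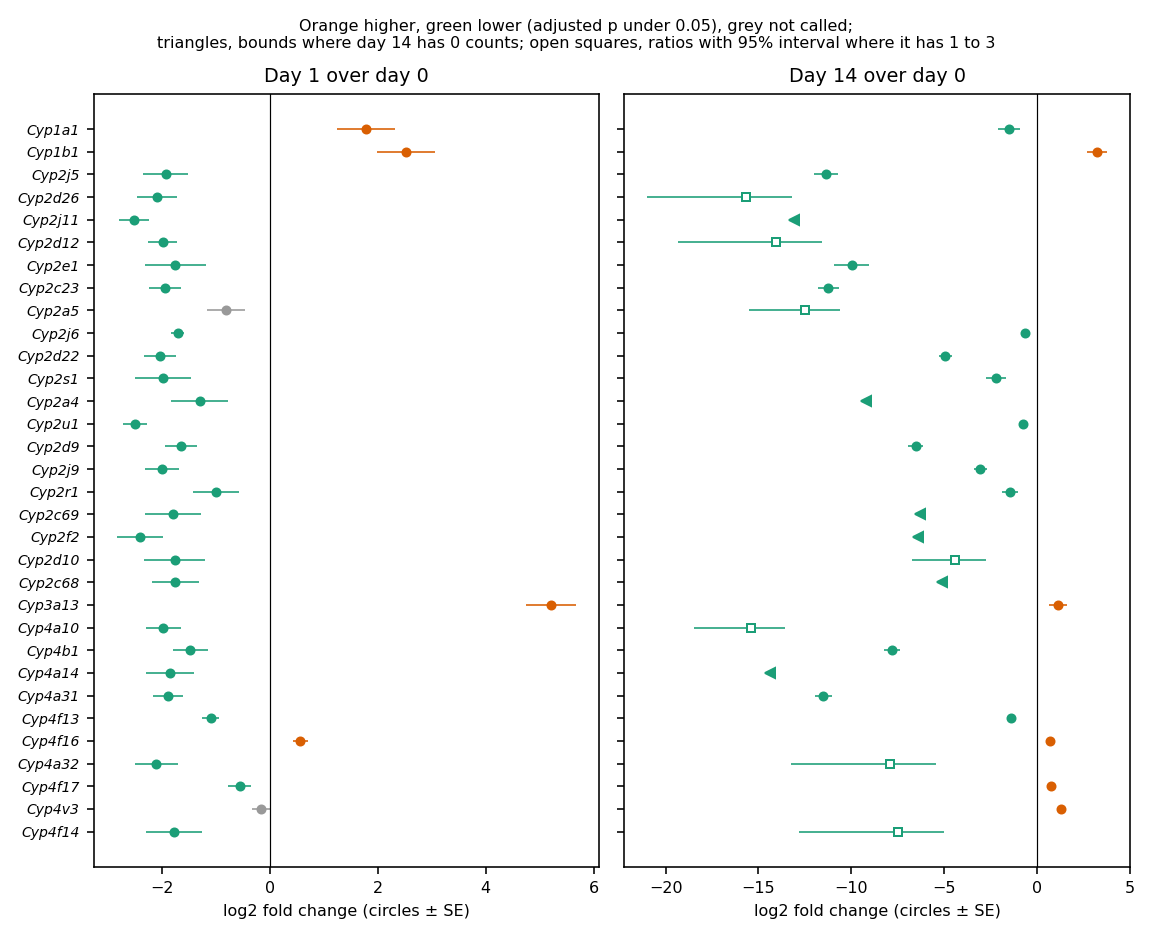
Log2 fold change of each member on day 1 (left) and day 14 (right) over day 0, with circles and SE from edgeR; triangles are bounds where day 14 has 0 counts, and open squares are ratios with a 95% counting interval where it has 1 to 3. The x axes differ: on day 1 the 26 lower members lie between -0.55 and -2.51, while the 27 lower members of day 14 spread from -0.64 in Cyp2j6, whose sign turns by limma on log2(TPM + 1), down to the count ratios of Cyp4a10 and Cyp2d26; the triangles of Cyp4a14 and Cyp2j11 mark bounds, not estimates.

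The falls had a narrow range on day 1 and a wide one on day 14. The called falls of day 1 ran from -0.55 ± 0.21 in Cyp4f17 to -2.51 ± 0.27 in Cyp2j11. That of Cyp4f17 was lost without day 0 replicate A or B or day 1 replicate A (adjusted p between 0.0506 and 0.138) and with library sizes alone (-0.25, adjusted p = 0.319). That of Cyp2r1 was lost without any 1 of 13 single libraries, with the replicate block (adjusted p = 0.0585) and with library sizes alone (-0.67, adjusted p = 0.161). The day 14 values ran from -0.64 ± 0.11 in Cyp2j6, which turns sign by limma on log2(TPM + 1), to the ratio given above for Cyp2d26, which rests on a single count, while Cyp4a14 and Cyp2j11 have bounds alone (at least 21440-fold and 8655-fold lower). The make-up of the pool changed with them. The 8 most abundant members on day 14 were Cyp2j6, Cyp4f13, Cyp4f16, Cyp4v3, Cyp4f17, Cyp2u1, Cyp1b1 and Cyp2s1, and 0 of them were among the 8 most abundant on day 0, which were Cyp2j5, Cyp4a10, Cyp2d26, Cyp4b1, Cyp4a14, Cyp4a31, Cyp2j11 and Cyp2d12. In that day 14 order, Cyp2j6 averaged 27.4 ± 0.417 TPM, and the ranges of Cyp4f13 and Cyp4f16 overlapped, with 22.8, 23.9 and 22.9 TPM for Cyp4f13 and 22.3, 19.2 and 23.7 TPM for Cyp4f16. Cyp2u1, Cyp1b1 and Cyp2s1 also overlapped, between 4.76 and 6.61 TPM. A set of 7 genes, chosen after their values were seen (Cyp2j6, Cyp2u1, Cyp2s1, Cyp4f13, Cyp4f16, Cyp4f17 and Cyp4v3), made 86.8 ± 0.585% of the summed TPM on day 14 and 2.79 ± 0.29% on day 0 (mean ± SD, 3 libraries). A set of 6, chosen likewise (Cyp2j5, Cyp2d26, Cyp4a10, Cyp4a14, Cyp4a31 and Cyp4b1), made 2.92 ± 0.411% on day 14 and 79.7 ± 1.44% on day 0.

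**Figure D5:**
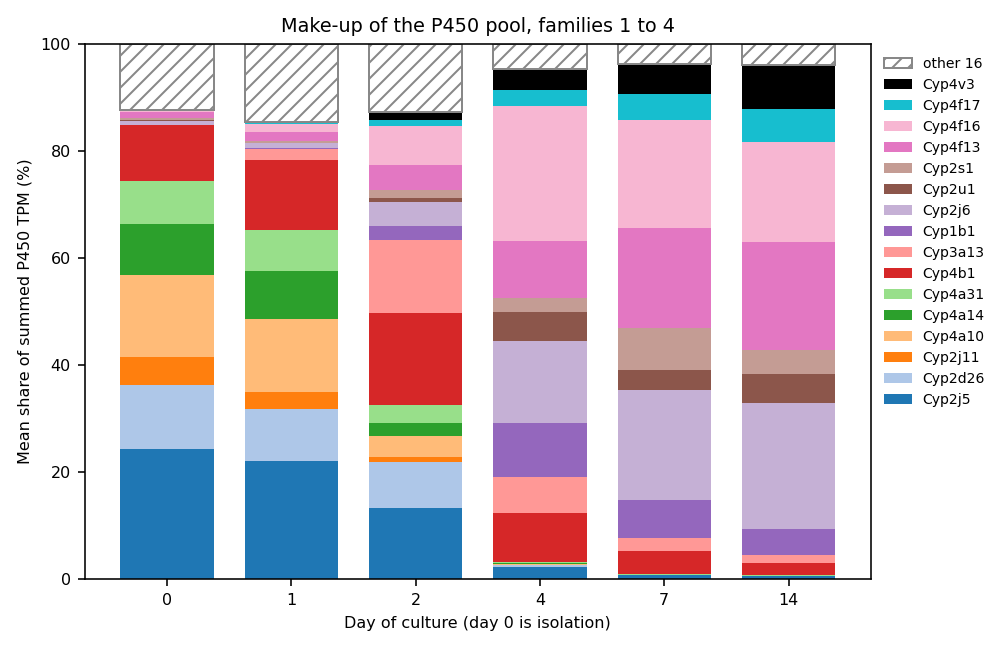
Mean share of each member in the summed TPM of the 32 members on each day (3 libraries a day); 16 members are shown by colour and the other 16 together as the hatched segment. Cyp2j5, Cyp4a10 and Cyp2d26 lead on day 0, and Cyp2j6, Cyp4f13 and Cyp4f16 lead on day 14.

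Between consecutive days most changes fell in the first 4 days. By edgeR, day 2 against day 1 had 0 members higher and 20 lower (17.0% and 17.5% of all genes), with 23 at an unadjusted p under 0.05, and DESeq2 called 0 higher and 21 lower. Without day 7 replicate B or C, 1 or 2 members were called higher. Day 4 against day 2 had 1 higher (Cyp2u1) and 22 lower (19.4% and 22.1% of all genes). Same-lettered libraries of these 2 days deviated together, which the main test did not use. With the letter as a block in the model of all days the counts were 1 and 21. Without day 2 replicate B or C, or day 4 replicate C, Cyp2u1 was not called and the count was 0. Of the lower members, Cyp4v3 was not called without any single day 2, day 4 or day 14 library (adjusted p between 0.054 and 0.182). Cyp2c69 was not called without any single day 4 library (0.0743 to 0.0792), among others, or with the replicate block (0.0593). Cyp4a32 was lost without day 2 replicate A or C or day 4 replicate A or B (0.0587 to 0.0886), and Cyp2f2 without day 2 replicate A (0.0542). Day 7 against day 4 had 7 higher (Cyp2d22, Cyp2j6, Cyp2j9, Cyp2s1, Cyp4f13, Cyp4f17 and Cyp4v3) and 0 lower by edgeR (22.0% and 15.9% of all genes), with 9 at an unadjusted p under 0.05, while DESeq2 called 4 lower. Cyp2d22 was not called without day 7 replicate A (adjusted p = 0.0632), nor Cyp2j9 without day 4 replicate B or C (adjusted p 0.067 and 0.0717). Without day 7 replicate C the lower count was 3, and without day 0, day 2 or day 4 replicate B it was 1. Day 14 against day 7 had 0 called in either direction by edgeR (5.07% and 7.46% of all genes), 3 at an unadjusted p under 0.05 (Cyp1a1, Cyp4b1 and Cyp4v3) and 3 at an adjusted p under 0.05 by DESeq2. For that pair, leaving out day 7 replicate A or C or day 1 replicate C gave 1 higher, and leaving out day 7 replicate A or C gave 2 or 1 lower. Day 14 against day 4 had 9 higher (Cyp2d9, Cyp2d22, Cyp2j6, Cyp2j9, Cyp2s1, Cyp2u1, Cyp4f13, Cyp4f17 and Cyp4v3) and 5 lower (Cyp2a5, Cyp2c23, Cyp2j5, Cyp3a13 and Cyp4b1), beside 28.6% and 23.3% of all genes. Cyp2s1 was not called in that pair without any single day 4 or day 14 library or day 2 replicate A (adjusted p between 0.0504 and 0.112). The day 14 and day 4 libraries of Cyp2d22 overlapped. It was not called without day 14 replicate A (adjusted p = 0.0582) or day 4 replicate A (0.0621), nor by limma on log2(TPM + 1) (0.398). Cyp2c23, whose day 14 and day 4 libraries overlapped, was not called with the replicate block (adjusted p = 0.0514), by limma on log2(TPM + 1) (0.382) or without any 1 of 9 single libraries (highest adjusted p 0.157, without day 4 replicate A). Cyp2j5 was not called without day 14 replicate A or B or day 4 replicate C (adjusted p between 0.076 and 0.131), nor Cyp2a5 without day 14 replicate A or day 7 replicate C (0.0515 and 0.0592), and neither was called by limma on log2(TPM + 1) (0.0907 for Cyp2j5 and 0.222 for Cyp2a5). The lower count was 2 without day 14 replicate A and 3 without day 14 replicate B, day 4 replicate C or day 7 replicate C. Over the 6 days together, all 32 members differed (highest adjusted p 0.00398, Cyp2r1), as did 89.8% of all tested genes.

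Most genes that supply these enzymes with electrons or heme fell too. The reductase Por was at 89.6, 85.9 and 94.3 TPM on day 14 and 208, 249.7 and 197 on day 0 (log2 fold change -2.15 ± 0.14, adjusted p = 8.92e-10). Cyb5a, the cytochrome b5 that passes electrons to some P450s, averaged 278 ± 16.6 TPM on day 14 and 993 ± 76.7 on day 0 (-2.68 ± 0.11, adjusted p = 1.12e-11). Of a list of 7 electron donors and partners, 1 was higher and 5 lower on day 14, with a median log2 fold change of -0.61, beside 37.4% of all genes higher and 32.1% lower (median 0.16). Cyb5r1, a cytochrome b5 reductase, was the higher one, at 109 ± 7.1 TPM on day 14 and 16.3 ± 1.38 on day 0. Alas1, the first enzyme of heme synthesis, averaged 71.1 ± 4.19 TPM on day 14 and 245 ± 60.8 on day 0 (-2.60 ± 0.17, adjusted p = 1.53e-09), and the later steps Alad (-2.10 ± 0.11, adjusted p = 1.10e-10) and Urod (-1.49 ± 0.08, adjusted p = 1.37e-10) fell as well. Of 8 heme synthesis genes 0 were higher and 7 lower (median -1.07).

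Among 17 receptors and factors that regulate P450 genes, 3 were called higher and 11 lower for day 14 over day 0 (median -2.05). Ahr, the receptor behind Cyp1a1 and Cyp1b1 induction, averaged 2.29 ± 0.172, 5.94 ± 0.512, 15.6 ± 2.06 and 21.9 ± 2.12 TPM on days 0, 1, 4 and 14 (2.42 ± 0.16 on day 14 against day 0, adjusted p = 1.24e-09). The factor Cebpb, induced in many stress responses, averaged 238 ± 7.84 TPM on day 14 and 14.9 ± 2.3 on day 0 (3.16 ± 0.19, adjusted p = 3.56e-10), while the related Cebpa averaged 2 ± 0.319 TPM on day 14 and 11 ± 0.888 on day 0 (-3.26 ± 0.15, adjusted p = 3.13e-11). The oxysterol receptor Nr1h3 averaged 2.88 ± 0.171 TPM on day 14 and 29.9 ± 2.38 on day 0 (-4.22 ± 0.17, adjusted p = 5.32e-12). Of 7 tested Ahr targets outside the P450s, 4 were higher and 2 lower on day 1 (median 1.68), beside 33.1% and 37.1% of all genes. On day 14, 3 were higher and 2 lower (median 0.38), near the shares of all genes (37.4% and 32.1%). Nqo1, a quinone reductase of that list, averaged 215 ± 12.1 TPM on day 1 and 51.9 ± 7.29 on day 0 (1.68 ± 0.16, adjusted p = 1.13e-07). Ppara, the fatty acid receptor that drives Cyp4a genes, stood at 0.55, 0.58 and 0.37 TPM on day 14 and 43.5, 56 and 37.3 on day 0 (-6.84 ± 0.46, adjusted p = 1.82e-09), and 13 of 15 of its other targets were lower and 1 higher (median -3.14). Hnf4a, a factor of liver and tubule genes, stood at 0.67, 0.41 and 0.28 TPM on day 14 and 150.2, 141 and 129 on day 0 (-9.08 ± 0.70, adjusted p = 9.17e-09). The xenobiotic receptor Nr1i2 averaged 0.0467 ± 0.0643 TPM on day 14 and 2.08 ± 0.445 on day 0 (-6.18 ± 0.65, adjusted p = 3.78e-07), and Nr1i3 0.103 ± 0.0503 TPM on day 14 and 0.513 ± 0.0643 on day 0 (-2.05 ± 0.70, adjusted p = 0.0159). Among the Ppara targets, the peroxisomal thiolase Acaa1b averaged 3.61 ± 0.622 TPM on day 14 and 399 ± 65.4 on day 0 (-7.63 ± 0.38, adjusted p = 5.15e-11), and the lipid droplet protein Plin2, the higher one, 367 ± 20.6 TPM on day 14 and 86 ± 6.66 on day 0 (1.28 ± 0.40, adjusted p = 0.00886). Whether any of these factors acts on the members was not tested.

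The hydrolases that act on epoxides went opposite ways, with Ephx1 higher and Ephx2 lower on day 14. Ephx2, the soluble hydrolase of arachidonic acid epoxides, stood at 3.33, 1.86 and 2.78 TPM on day 14 and 266, 276 and 247 on day 0 (-7.45 ± 0.43, adjusted p = 3.06e-10), and the microsomal hydrolase Ephx1 at 272, 251 and 268 TPM on day 14 and 27.8, 30.5 and 33.9 on day 0 (2.26 ± 0.23, adjusted p = 2.99e-07). The phospholipase Pla2g4a, which releases arachidonic acid, averaged 22.7 ± 2.42 TPM on day 14 and 4.49 ± 0.218 on day 0 (1.49 ± 0.21, adjusted p = 8.07e-06), and thromboxane synthase Tbxas1 1.17 ± 0.145 TPM on day 14 and 17.6 ± 2.39 on day 0 (-4.91 ± 0.24, adjusted p = 4.98e-11). Of 13 tested eicosanoid and epoxide enzymes without a Cyp name, Tbxas1 among them, 5 were higher and 7 lower on day 14 (median -0.72). The higher count is near the share of all genes (37.4% higher and 32.1% lower). Beside 5 higher and 27 lower of 32 in families 1 to 4, the 12 tested genes with a Cyp name in other families had 6 higher and 6 lower on day 14 (median -0.01). The 32 had to reach 0.5 TPM on 1 or more days, a choice that favours genes high on day 0. The other 12 came from a list of 19 genes without that threshold. The 2 splits are therefore not alike in choice, and the difference between them was not tested.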

How the data were processed

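PolyA RNA from 18 libraries was analysed, 3 for each of 6 days. The submitters' processing notes name cutadapt 2.3, FastQC 0.11.8, STAR 2.7.8a, RSEM 1.3.3 and the build GRCm38 without saying what each was used for. Which annotation release was used, and whether counting used strand, was not stated in the labels. The authors deposited TPM and estimated counts per gene, the counts as whole numbers. Levels in the text are TPM, and tests used the deposited estimated counts, rounded to whole numbers.

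Counts were tested in R 4.3.3 with edgeR 4.0.16 (quasi-likelihood F test, TMM, filterByExpr by day, 1 model of 6 day means, Benjamini-Hochberg adjustment over 18754 genes, call at adjusted p under 0.05). The SE is the absolute log2 fold change over the square root of F. Alternatives used DESeq2 1.42.0, limma 3.58.1 on log2(TPM + 1) or log2(TPM + 0.1), other scalings, no low-count filter, the days compared alone, a replicate block, other member thresholds and each library left out in turn. The test was run on simulated counts in which a small set of genes changed on a single day, with the same spread for all genes. That run cannot show how the test behaves where most genes change. Folds against a day with 0 counts are bounds from 3 counts over its 3 libraries, and intervals and bounds cover counting error only. Shared 31-base words were counted among GENCODE vM21 transcripts (GRCm38). Sums and figures used Python 3.11.15, pandas 2.3.3 and matplotlib 3.10.9.

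Same-lettered libraries deviated together on every letter only between days 4 and 2 (correlations 0.16 to 0.293). The main test used no pairing for these days, and the letter entered only in the alternative with a replicate block over all days. No pair of replicates agreed within counting noise (lowest chi-square per degree of freedom 7.034).

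The members and gene lists were chosen with earlier results of these data known. Genes given with their library values (as a limit or range on days when they were near 0) were the up to 4 most abundant members of each family, the 3 largest non-overlapping called rises and falls on days 1 and 14 against day 0, and the 3 largest called rises on day 14 against day 4. From other lists, 8 preset genes were named, and up to 2 per list and direction of smallest adjusted p; those of the marker lists and Ugt1a6a, Ugt1a6b, Lpcat2 and Hadha are given by count only. Cyp2a5, Cyp2c23, Cyp2e1, Cyp2j6, Cyp2s1 and the 2 sets of summed shares were shown after their values were seen.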

Additional observations from a re-analysis of the deposited data

How the results depend on the processing

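Of 218 called results of single members, 181 kept direction and call under every alternative that tested the member, and 37 lost the call under 1 or more. Of 5817 pairs of result and alternative, 6 changed sign. The 6 are Cyp2j6 on day 14 against day 0 (log2 fold change 0.1869 by limma on log2(TPM + 0.1), 0.1805 on log2(TPM + 1) with and without a filter) and Cyp2u1 on the same days (0.1638, 0.1417 and 0.1417). Library sizes alone moved the median of all genes, so day 14 calls near the day 0 level depend on scaling. The limma fits with a filter kept genes with a mean of at least 0.5 TPM over all libraries, 27 of the 32 members. They did not test Cyp2c68, Cyp2c69, Cyp2d10, Cyp2f2 and Cyp4f14, which edgeR called lower on day 14. Counts of members called in the comparisons with day 0 stayed within 1.5 times, except 17 lower on day 14 by limma on log2(TPM + 0.1), a fit without these genes. Day 2 against day 1 had 2 higher with library sizes alone and by limma with either pseudocount, and 1 with the compared days alone. Day 4 against day 2 had 0 higher with no filter on low counts. Day 7 against day 4 had 4 higher by limma on log2(TPM + 1) with no filter, and 4, 2 and 1 lower by DESeq2, limma on log2(TPM + 0.1) and the compared days alone. Day 14 against day 7 had 3 higher by DESeq2 and by limma on log2(TPM + 0.1), and 1 with library sizes alone and by limma on log2(TPM + 1) with and without a filter. Day 14 against day 4 had 2 lower by limma on log2(TPM + 1) with and without a filter. The causes were not tested.

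Leaving out each library in turn gave 0 to 2 higher for day 2 against day 1. It gave 0 to 1 higher and 18 to 23 lower for day 4 against day 2, and 0 to 3 lower for day 7 against day 4. Day 14 had 0 to 1 higher and 0 to 2 lower against day 7, and 2 to 6 lower against day 4. For day 1 against day 0 it gave 3 to 4 higher and 22 to 27 lower, and for day 14 against day 0 it gave 4 to 5 and 26 to 27. With the replicate letter as a block, day 1 against day 0 had 25 lower (Cyp2r1 was lost), day 4 against day 2 had 21, and day 14 against day 4 had 8 higher and 5 lower, of which 4 were shared. The block changed no other count. Of the 45 same-letter pairs of libraries, 8 had a correlation of deviations over 0.1. Levels of a few counts on days 4 to 14 limit many members to a bound, and the 2a, 2c68, 2c69, 2d9, 2d10 and 4a near-copies are limited by shared sequence.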

Other observations

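P450 genes of other families moved both ways. Cyp21a1, the steroid 21-hydroxylase of the adrenal, stood at 3.26, 2.61 and 3.11 TPM on day 14 and 0 TPM in all 3 libraries of day 0. Cyp26a1, which degrades retinoic acid, stood at 4.09, 4.17 and 3.55 TPM on day 14 and 0.15, 0.09 and 0.16 TPM on day 0 (edgeR log2 fold change 4.15 ± 0.57, adjusted p = 7.04e-06). Both were low until day 4, with means of 0.147 ± 0.0351 and 0.113 ± 0.0208 TPM on that day. Cyp27a1, a mitochondrial sterol hydroxylase, fell to 0.56, 0.39 and 0.77 TPM on day 14, against 33.9, 33.6 and 25.2 TPM on day 0 (-6.58 ± 0.35, adjusted p = 9.45e-11). The vitamin D degrading Cyp24a1 stood at 1.64, 1.1 and 1.49 TPM on day 14 and 52.1, 39.1 and 58.8 TPM on day 0 (-5.97 ± 0.52, adjusted p = 4.09e-08).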
